A study of Mus musculus with 12 samples.

Results

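The genes described here encode the peptidylarginine deiminases (PADs) and the chain that carries the signal of the cytokine interleukin-33 (IL-33) into a cell. There are 10 of them, chosen by name: Padi1, Padi2, Padi3, Padi4, Il33, Il1rl1, Il1rap, Myd88, Irak4 and Traf6. All 10 have a row among the 32199 genes of the PAD4 set, and 9 have one among the 31719 of the IL-33 set. Padi3 in the IL-33 set was not analysed here. The data are bulk RNA-seq of the remaining mouse kidney in contrast-induced acute kidney injury, from 12 libraries in 4 groups of 3, labelled as independent biological replicates.

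The knockouts were male Padi4 knockout mice (PAD4 KO) and male Il33 knockout mice (labelled IL-33 KO). Each was set against male wild-type (WT) C57BL/6 mice of its own batch, batch 1 for the PAD4 set and batch 2 for the IL-33 set. The mice were aged 8 weeks, and all had 1 kidney removed, with 3 weeks to recover. All then went without water for 24 h, were given furosemide, a loop diuretic, into the peritoneum 20 min before iodixanol, an iodinated contrast agent, and were sampled 24 h after it. No uninjured group is among the samples analysed here. The labels describe the knockouts by the gene only, so which exons were removed, and in which cells, is not given in the sources used here. The series asks how PAD4-dependent neutrophil extracellular traps and IL-33 bear on this injury.

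PAD enzymes use calcium to turn arginine residues of proteins into citrulline. PAD4 enters the nucleus and acts on histones when neutrophils release extracellular traps, while PAD1 and PAD3 are best known from epidermis and hair follicles and PAD2 is found in many tissues. IL-33 sits in the nucleus of stromal and barrier cells and is set free when they are damaged. Outside the cell it binds ST2, encoded by Il1rl1, which pairs with the co-receptor IL-1RAcP, encoded by Il1rap. The adaptor MyD88 then recruits the kinase IRAK4, and the ubiquitin ligase TRAF6 passes the signal to the NF-κB and MAP kinase pathways.

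A GENCODE annotation orders the PAD genes on chromosome 4 as Padi6, Padi4, Padi3, Padi1 and Padi2, so these genes are neighbours. The 250 bases before the start are shown for the genes whose levels differ most in the comparisons that follow. They come from RefSeq on GRCm38.p6 and run 5′ to 3′ on the gene's own strand. Il33 has a pair of starts in this table, and the Padi4 window stops short of the start, at 244 bases. The starts used for Padi2 and Padi4 lie 24 and 36 bases inside the outer RefSeq edge of the gene, so these windows reach into the gene. The windows are chr4:140845779-140846028 (minus strand) for Padi1, chr4:140906110-140906359 (plus) for Padi2, chr4:140774210-140774453 (minus) for Padi4, chr19:29924863-29925112 (plus) for the first start of Il33, chr19:29945540-29945789 (plus) for its other start, and chr9:119340019-119340268 (minus) for Myd88. Capitals mark matches, on either strand, to the TATA box TATAAA, the GC box GGGCGG and the AP-1 site TGANTCA.
Padi1: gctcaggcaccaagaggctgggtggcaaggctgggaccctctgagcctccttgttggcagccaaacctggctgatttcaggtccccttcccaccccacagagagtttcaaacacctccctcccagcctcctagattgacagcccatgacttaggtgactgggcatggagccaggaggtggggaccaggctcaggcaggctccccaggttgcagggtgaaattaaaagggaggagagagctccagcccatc
Padi2: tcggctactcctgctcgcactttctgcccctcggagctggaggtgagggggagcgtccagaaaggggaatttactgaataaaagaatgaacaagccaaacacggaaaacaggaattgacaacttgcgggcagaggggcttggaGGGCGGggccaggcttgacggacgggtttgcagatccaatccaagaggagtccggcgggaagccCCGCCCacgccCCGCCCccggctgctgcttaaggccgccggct
Padi4: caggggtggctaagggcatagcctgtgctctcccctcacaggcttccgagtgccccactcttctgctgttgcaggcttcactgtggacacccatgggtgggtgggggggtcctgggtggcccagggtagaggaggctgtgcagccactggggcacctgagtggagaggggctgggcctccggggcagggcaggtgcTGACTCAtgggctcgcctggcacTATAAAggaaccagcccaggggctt
Il33, first start: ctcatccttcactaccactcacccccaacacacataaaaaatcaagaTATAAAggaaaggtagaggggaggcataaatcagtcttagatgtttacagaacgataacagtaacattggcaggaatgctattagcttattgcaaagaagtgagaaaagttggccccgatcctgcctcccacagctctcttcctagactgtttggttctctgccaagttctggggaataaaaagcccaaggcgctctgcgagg
Il33, other start: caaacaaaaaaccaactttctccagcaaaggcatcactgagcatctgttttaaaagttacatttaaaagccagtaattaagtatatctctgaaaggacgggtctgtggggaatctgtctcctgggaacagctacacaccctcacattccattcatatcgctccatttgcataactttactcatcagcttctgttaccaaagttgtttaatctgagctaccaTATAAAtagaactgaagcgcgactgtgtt
Myd88: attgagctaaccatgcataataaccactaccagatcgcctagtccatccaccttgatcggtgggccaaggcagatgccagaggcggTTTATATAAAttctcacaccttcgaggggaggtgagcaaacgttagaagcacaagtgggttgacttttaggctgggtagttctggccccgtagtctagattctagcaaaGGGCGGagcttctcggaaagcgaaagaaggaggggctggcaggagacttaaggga
The PAD windows differ from each other. Padi1 holds none of these motifs and 0 CG dinucleotides. Padi2 holds 17 CG, and GC boxes at 107, 43 and 32 bases before the start. Padi4 holds a TATA box at 31 and an AP-1 match at 54 bases before the start used. The TATA match of Padi4 lies inside the RefSeq edge of the gene, and the AP-1 match lies outside it. Each Il33 window has a TATA box, at 203 and at 29 bases before its start. Myd88 has overlapping TATA matches at 164 and 160 and a GC box at 55. Among 32851 RefSeq promoters of 250 bases, 12.4% hold the TATA box, 32.7% the GC box and 6.75% the AP-1 site, with a median of 6 CG. A match is a run of letters and says nothing of use in these kidneys.

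The values are FPKM, fragments scaled to transcript length and to all mapped fragments, and carry no sequencing depth, so the depth is unknown. A library of the PAD4 set listed 10205 to 11983 genes at 1 FPKM or more, and one of the IL-33 set 11765 to 12657. Proximal tubule markers, which define kidney cortex, summed to 9877 to 25154 FPKM in PAD4 KO libraries and 4882 to 8144 FPKM in their WT libraries. PAD4 KO library 2 stood apart from the other PAD4 KO libraries. Its neutrophil markers summed to 95.9 FPKM, against 16.5 and 18.8 FPKM in the others, and its smooth muscle markers to 242 FPKM, against 63.2 and 102 FPKM. Among the WT libraries of that set, library 3 had the highest smooth muscle sum, at 750 FPKM, against 347 and 352 FPKM.

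In the PAD4 set, Padi1, Padi2, Padi4 and Il33 were lower in PAD4 KO kidneys, each at 25.3% to 30.9% of its WT mean, and no member was higher. Changes are given as differences of log2(FPKM + 1), where the added 1 makes the change of a low gene look smaller. They were called at an adjusted p under 0.05 from limma, adjusted over all 13986 genes with a mean of at least 0.5 FPKM. Of the 7 members that reached this level, 4 were called lower, where 8.79% of all genes tested were called lower, 8.89% higher and 17.7% in either direction. The groups did not overlap for 6 of the 7, all with lower PAD4 KO values, where 15.8% of genes tested had that pattern, 17.2% the opposite one and 33.0% either. The median change was -0.71 over these members and 0.016 over all genes tested. Without WT library 1, and likewise without WT library 3, 2 members were called. Padi4 reached the level through its WT libraries alone, so these counts are given as a description.

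Padi4 (ENSMUSG00000025330), the knocked-out gene, had 0.217, 0.497 and 0.187 FPKM in PAD4 KO libraries, against 0.704, 1.06 and 1.67 FPKM in WT libraries. Every PAD4 KO value lay under every WT value, and transcript of the gene was still listed in all 3 PAD4 KO libraries. The Padi4 mean was 26.2% of WT, beside 25.3% for Padi1 and 26.1% for Padi2, which the label does not name. These values do not show which exons the reads cover, and do not settle the label. The change was -0.71 ± 0.19 (SE, limma adjusted p = 0.0147). With 3 libraries against 3, the two-sided exact permutation p was 0.1 and could not be lower. The call was lost without PAD4 KO library 3 (limma adjusted p = 0.0590) and without WT library 3 (limma adjusted p = 0.0752). In a bulk sample, fewer cells of a type and less RNA per cell cannot be told apart.

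The neighbouring PAD genes fell by as large a share. Padi1 (ENSMUSG00000025329) was the most abundant PAD transcript, with 2.32, 13.6 and 3.32 FPKM in PAD4 KO libraries and 19.5, 14.8 and 41.7 FPKM in WT libraries. The groups came close, since PAD4 KO library 2 lay just under WT library 2. The means were 6.42 ± 6.25 FPKM in PAD4 KO and 25.3 ± 14.3 FPKM in WT (SD, n = 3 each), a change of -2.02 ± 0.45 (SE, limma adjusted p = 0.00445). Without WT library 1 the limma adjusted p was 0.0704, and without WT library 3 it was 0.0686. Without PAD4 KO library 2 the change was -2.66.

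Padi2 (ENSMUSG00000028927) had 0.720, 4.02 and 1.13 FPKM in PAD4 KO libraries, against 6.38, 5.22 and 10.9 FPKM in WT libraries. Here too PAD4 KO library 2 was the highest of its group and WT library 3 the highest of all. The means were 1.96 ± 1.80 FPKM in PAD4 KO and 7.50 ± 3.01 FPKM in WT (SD, n = 3 each), a change of -1.63 ± 0.34 (SE, limma adjusted p = 0.00278). The call was lost without WT library 1 (limma adjusted p = 0.0522). Padi3 (ENSMUSG00000025328), the PAD of the hair follicle, had 0.0542, 0.173 and 0.0208 FPKM in PAD4 KO libraries and 0.319, 0.112 and 0.438 FPKM in WT libraries. These values lay below the level tested and overlapped (exact permutation p = 0.2).

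In all 6 libraries of the set the PAD genes kept one order of FPKM, with Padi1 highest, then Padi2, Padi4 and Padi3. Padi1 and Padi2 moved together from library to library. The ratio of their FPKM was 3.22, 3.39 and 2.95 in PAD4 KO libraries and 3.06, 2.85 and 3.82 in WT libraries, while Padi1 itself ranged between 2.32 and 41.7 FPKM. The ratio of Padi1 to Padi4 varied more, at 10.7, 27.4 and 17.7 in PAD4 KO libraries and 27.7, 14.0 and 24.9 in WT libraries.

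**Figure D1:**
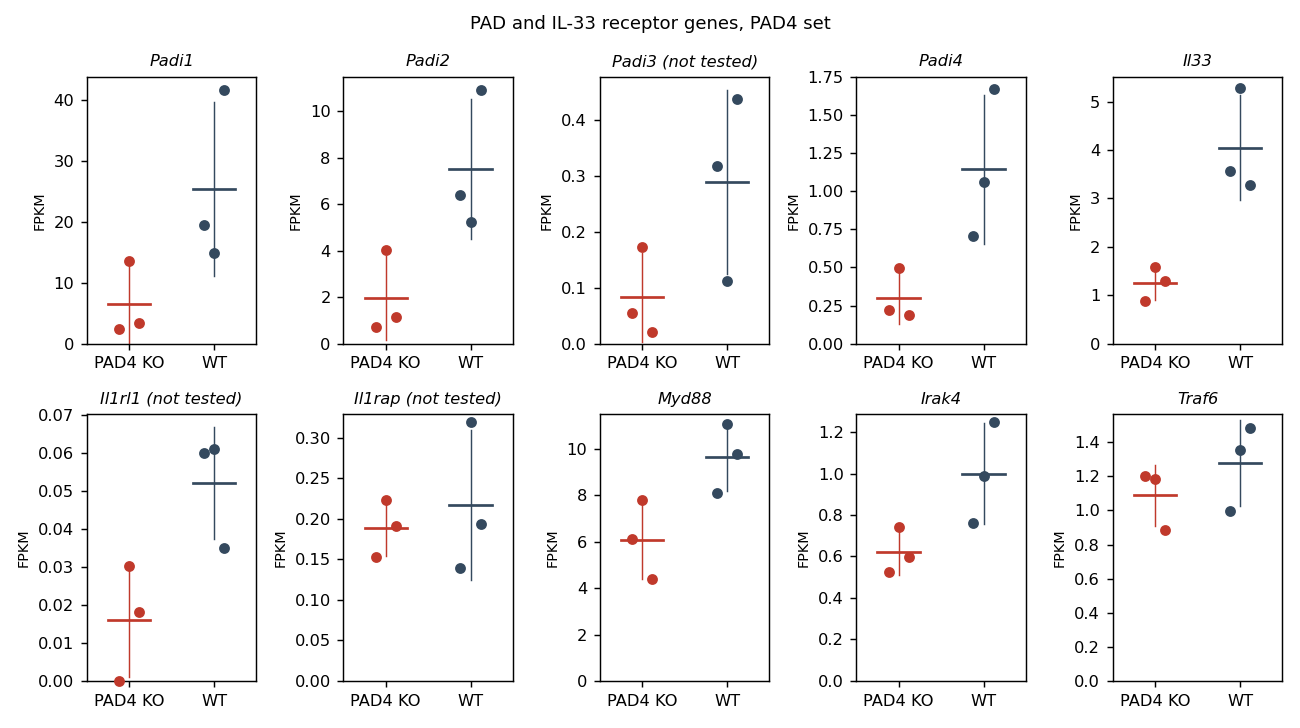
FPKM of each of the 10 genes in the PAD4 set, with a point per library (3 PAD4 KO, 3 WT), a horizontal bar for the mean and a vertical line for the SD; the scale differs between panels. Padi1, Padi2, Padi4 and Il33 show PAD4 KO points below all WT points, with means at 25.3% to 30.9% of WT.

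Genes beside and within the PAD cluster did not share one direction. Sdhb, a subunit of mitochondrial complex II and the gene next to Padi2, was higher in PAD4 KO kidneys, at 105 ± 47.9 FPKM, against 16.0 ± 4.42 FPKM in WT (SD, n = 3 each; 2.56 ± 0.37 (SE), limma adjusted p = 0.000183). Rcc2, which lies beyond Padi6 at the opposite end, had 7.19 ± 1.35 FPKM in PAD4 KO and 9.75 ± 3.11 FPKM in WT, 73.8% of the WT mean, and was not called (-0.37 ± 0.28 (SE), limma adjusted p = 0.417). Padi6, the PAD of the oocyte, was at or below 0.0842 FPKM in every library. Genes on the opposite strand of Padi1 and Padi2 lay below the level tested and stood in opposite orders. Gm13032, opposite Padi1, had 0.109, 0.120 and 0 FPKM in PAD4 KO libraries and 0.234, 0.166 and 0.292 FPKM in WT libraries, with every PAD4 KO value under every WT value (exact permutation p = 0.1). Gm13031, opposite Padi2, had 0.496, 0.0991 and 0.313 FPKM in PAD4 KO libraries and 0.0499, 0 and 0 FPKM in WT libraries, with every PAD4 KO value above every WT value (exact permutation p = 0.1).

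Several lists of markers of other tissues moved with the PAD genes in the same libraries. Of the smooth muscle markers, 8 of 9 tested were lower in PAD4 KO, with sums of 63.2 to 242 FPKM against 347 to 750 FPKM in WT. That count was 3 without WT library 1 and 2 without WT library 3. Of 20 colon markers, 19 were lower and none was higher, with sums of 181 to 327 FPKM in PAD4 KO and 574 to 836 FPKM in WT, and every one of them had a mean of at least 0.1 FPKM over the 6 libraries. Of 16 neutrophil markers, 13 were tested and 7 were lower, with sums of 16.5 to 95.9 FPKM in PAD4 KO and 111 to 220 FPKM in WT. Without PAD4 KO library 2, 13 neutrophil markers were lower, and without WT library 1 the count was 3. Of 10 tested lung markers 9 were lower and 1, Napsa, was higher. Napsa, an aspartic protease that kidney tubules make as well, was at 523 ± 330 FPKM in PAD4 KO and 185 ± 41.6 FPKM in WT (SD, n = 3 each). With it the lung sums overlapped, at 406 to 920 FPKM in PAD4 KO and 473 to 1005 FPKM in WT, and they did not follow Padi1 (Pearson r = -0.16 over the 6 libraries, as a description). Padi1 did follow the smooth muscle sums (r = 0.99), the colon sums (r = 0.92) and the neutrophil sums (r = 0.90). Like the lung sums, the endothelial sums did not follow it (r = 0.11). Of 14 tested proximal tubule markers 12 were higher. Of 8 eosinophil markers only Ear2, a ribonuclease, was tested, at 0.0661, 0.363 and 0.127 FPKM in PAD4 KO libraries and 0.692, 2.13 and 1.48 FPKM in WT libraries. It reached the level through its WT libraries alone, so its lower values are a description. The same held for Itgam among the neutrophil markers and Lamp3 among the lung markers, while Slc13a1 of the proximal tubule list reached it through PAD4 KO alone.

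Neutrophil myeloperoxidase, Mpo, was at or below 0.0424 FPKM in every library of the set, and neutrophil elastase, Elane, at or below 0.0404 FPKM. Both are made in the marrow before neutrophils enter blood. Ly6g, a surface marker of mouse neutrophils, was at 1.38, 3.12 and 1.70 FPKM in PAD4 KO libraries and 4.67, 4.64 and 9.88 FPKM in WT libraries and fell (limma adjusted p = 0.00597).

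A list of 10 uterus genes, written after results were seen, had 7 lower members and sums of 27.5 to 184 FPKM in PAD4 KO against 191 to 608 FPKM in WT. Foxa2 and Hoxa13 of this list reached the level through WT alone. It shares Ltf with the neutrophil list, and its count was 3 without WT library 1 and 4 without WT library 3. Xist, transcribed from an inactive X chromosome, was at 0.401, 1.52 and 0.389 FPKM in PAD4 KO libraries and 2.00, 1.78 and 4.97 FPKM in WT libraries, although the mice are labelled male. Of the stratified epithelium and hair follicle markers, where PAD1 and PAD3 are best known, 1 of 5 tested, Tchh, was higher and none was lower. Tchh reached the level through the PAD4 KO libraries alone and was not called without PAD4 KO library 3, WT library 1 or WT library 3. The part that these other markers had in the lower PAD values was not tested.

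**Figure D2:**
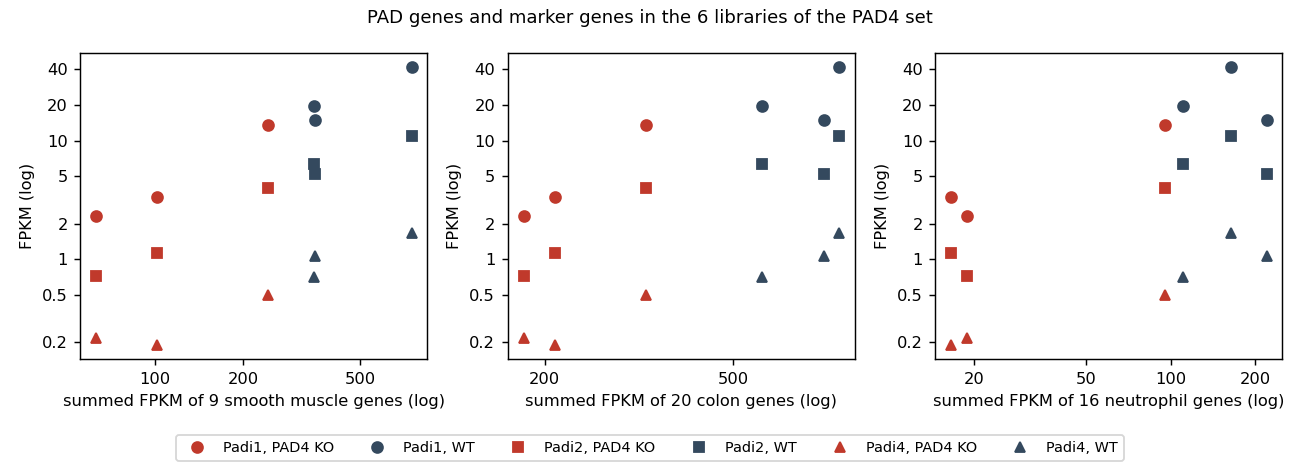
FPKM of Padi1, Padi2 and Padi4 (vertical, log scale) against the summed FPKM of 9 smooth muscle, 20 colon and 16 neutrophil markers (horizontal, log scale), with a point per gene and library of the PAD4 set. PAD4 KO points (3 per gene) lie to the lower left of the WT points, and PAD4 KO library 2, with a smooth muscle sum of 242 FPKM, lies nearest to them.

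Il33 (ENSMUSG00000024810), the ligand, was lower in PAD4 KO kidneys. It had 0.889, 1.58 and 1.28 FPKM in PAD4 KO libraries, against 3.57, 5.29 and 3.28 FPKM in WT libraries. The groups stood well apart, with the highest PAD4 KO value far under the lowest WT value. The change was -1.15 ± 0.23 (SE, limma adjusted p = 0.00208; exact permutation p = 0.1), and it passed whichever library was left out, with limma adjusted p values up to 0.0285. WT library 2 was the highest for Il33, unlike for the PAD genes, for which WT library 3 was. Fibroblast and pericyte markers, a known source of IL-33 among stromal cells, moved with it, with 7 of 10 lower and sums of 35.6 to 108 FPKM in PAD4 KO against 145 to 256 FPKM in WT. Without WT library 3, 3 of them were called. Over the 6 libraries Il33 had Pearson r = 0.93 with their sum, as a description. It had r = 0.94 with the colon sum and -0.94 with the proximal tubule sum, so following Il33 was not particular to fibroblast and pericyte markers. Of 12 endothelial markers, 11 were tested and none was called in either direction. The part of these cells in the lower Il33 was not tested.

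The receptor was close to the bottom of the table. Il1rl1 (ENSMUSG00000026069) had 0, 0.0302 and 0.0182 FPKM in PAD4 KO libraries and 0.0600, 0.0610 and 0.0350 FPKM in WT libraries. Every PAD4 KO value lay under every WT value (exact permutation p = 0.1), at levels below the one tested with limma. The co-receptor Il1rap (ENSMUSG00000022514), which also serves the IL-1 and IL-36 receptors, had 0.152, 0.223 and 0.192 FPKM in PAD4 KO libraries and 0.139, 0.319 and 0.193 FPKM in WT libraries. Those values overlapped (exact permutation p = 0.8).

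Markers of cells known to carry ST2 were mostly below the level tested. Among mast cell markers 3 of 10 were tested, Gata2, Hdc and Kit, and none was called. Gata2, a transcription factor that endothelial cells also make, was at 4.62 ± 0.767 FPKM in PAD4 KO and 5.69 ± 1.85 FPKM in WT, and Hdc, which makes histamine, at 1.44 ± 0.614 FPKM in PAD4 KO and 2.45 ± 0.959 FPKM in WT (SD, n = 3 each). The 10 mast cell markers summed to 6.79 to 7.59 FPKM in PAD4 KO and 6.98 to 13.3 FPKM in WT. Among regulatory T cell markers 2 of 6 were tested and not called, Tnfrsf18 and Tnfrsf4. Tnfrsf4 was at 1.09 ± 0.399 FPKM in PAD4 KO and 1.40 ± 0.909 FPKM in WT. Genes more particular to these cells were lower in level. Cpa3, the mast cell carboxypeptidase, was at 0.0733 to 0.0896 FPKM in PAD4 KO and 0.0427 to 0.137 FPKM in WT. Cma1, the mast cell chymase, was listed at 0 in all 3 PAD4 KO libraries and at 0.0761, 0.246 and 0.437 FPKM in WT libraries. Foxp3, the regulatory T cell factor, was at 0.0411 to 0.0907 FPKM in PAD4 KO and 0.0184 to 0.0967 FPKM in WT.

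The adaptor and the enzymes after it had higher levels than the receptor genes, and smaller changes than Il33. Myd88 (ENSMUSG00000032508) had 6.10, 7.79 and 4.38 FPKM in PAD4 KO libraries and 8.12, 11.1 and 9.79 FPKM in WT libraries. The groups did not overlap, but the change of -0.61 ± 0.27 (SE) did not pass (limma adjusted p = 0.134). With array weights, which give less weight to noisier libraries, it was -0.89 (limma adjusted p = 0.00227), and with quantile normalization -0.67 (limma adjusted p = 0.0451). Slc22a14, a transporter gene that overlaps Myd88 on the same strand, went the other way, at 1.51 ± 1.29 FPKM in PAD4 KO and 0.249 ± 0.255 FPKM in WT (SD, n = 3 each).

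Irak4 (ENSMUSG00000059883) had 0.523, 0.743 and 0.598 FPKM in PAD4 KO libraries and 0.763, 0.986 and 1.25 FPKM in WT libraries, with no overlap and a change of -0.30 ± 0.18 (SE, limma adjusted p = 0.270). Traf6 (ENSMUSG00000027164) had 1.20, 1.18 and 0.883 FPKM in PAD4 KO libraries and 0.998, 1.35 and 1.49 FPKM in WT libraries, which overlapped (-0.12 ± 0.19 (SE), limma adjusted p = 0.727). Neither passed under any of the other settings that were run.

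Further along the pathway, 5 of 32 signalling genes were lower in PAD4 KO, none was higher, and their median change was -0.16. This share of 15.6% lay near the 17.7% of all genes tested that were called in either direction, and above the 8.79% called lower. The groups did not overlap for 6 of the 32 (18.8%), against 33.0% of all genes tested. Counted in either direction, these shares do not set the pathway apart from the table. The lower genes were Fos and Jun, partners in the AP-1 factor, Nfkbia, the inhibitor of NF-κB that NF-κB itself induces, Relb, an NF-κB subunit, and Irak3, a brake on MyD88 signalling. Fos had 4.26, 6.44 and 3.32 FPKM in PAD4 KO libraries and 8.61, 12.0 and 10.8 FPKM in WT libraries (-1.04 ± 0.27 (SE), limma adjusted p = 0.0129). Nfkbia had 8.18, 17.7 and 5.92 FPKM in PAD4 KO libraries and 19.7, 27.4 and 22.9 FPKM in WT libraries (-1.19 ± 0.34 (SE), limma adjusted p = 0.0206). Jun changed by -1.08 (limma adjusted p = 0.0240) and Irak3 by -0.63 (limma adjusted p = 0.0262), both without overlap, while Relb values overlapped (-0.98, limma adjusted p = 0.0470). Irak3 reached the level through its WT libraries alone.

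The kinases between TRAF6 and these factors, among them Map3k7 (TAK1; 4.04 FPKM in PAD4 KO and 4.13 FPKM in WT), were not called. This count leaned on single libraries. It was 3 without PAD4 KO library 1, 9 without PAD4 KO library 2, 1 without PAD4 KO library 3, 1 without WT library 1 and 0 without WT library 3.

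Among 10 tested relatives of IL-33 and its receptor in the IL-1 family, 2 were lower and 1 was higher. The share called was 30%, against 17.7% of all genes tested. Il18, a cytokine activated by inflammasomes, was at 1.71 ± 1.09 FPKM in PAD4 KO and 5.06 ± 1.69 FPKM in WT (SD, n = 3 each; limma adjusted p = 0.00650). Il1r2, the decoy receptor of IL-1, was at 0.364 ± 0.355 FPKM in PAD4 KO and 2.48 ± 2.01 FPKM in WT, and reached the level through its WT libraries alone. Sigirr, a receptor-like inhibitor of this family that tubule cells express, was higher, at 14.5 ± 3.90 FPKM in PAD4 KO and 6.33 ± 1.45 FPKM in WT (limma adjusted p = 0.0134). The total called was 8 without PAD4 KO library 2 and 1 without WT library 1.

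Of the genes of type 2 lymphoid cells and their products, which IL-33 is known to induce, 3 of 8 tested were lower and none was higher. This was 37.5%, where 17.7% of all genes tested were called and 8.79% were lower. Areg, the epidermal growth factor family ligand, had 0.0878, 0.903 and 0.195 FPKM in PAD4 KO libraries and 1.65, 2.07 and 1.53 FPKM in WT libraries, without overlap, and reached the level through WT alone. Retnla and Arg1, products of alternatively activated macrophages, were lower as well (limma adjusted p = 0.0152 and 0.00398), and the Arg1 values overlapped. Without WT library 1 only 1 of these genes was called.

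Among 12 known citrullination targets and trap histone genes, 4 were lower in PAD4 KO and none was higher. That share of 33.3% stood beside 17.7% of all genes tested that were called, 8.79% of them lower. The lower genes were the fibrinogen chain Fgb (0.434 ± 0.438 FPKM in PAD4 KO, 3.81 ± 1.94 FPKM in WT), the keratins Krt8 and Krt18, and vimentin, Vim (6.06 ± 1.91 FPKM in PAD4 KO, 14.8 ± 4.66 FPKM in WT). None of the histone genes was among the 4, and H3f3a had 25.9 ± 7.02 FPKM in PAD4 KO and 27.5 ± 6.91 FPKM in WT. Fgb reached the level through its WT libraries alone. The count was 2 without WT library 1 and 1 without WT library 3.

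In the IL-33 set the PAD genes were close to 0, and Myd88 alone among the members was called. Of the 5 members that reached the level tested, 1 was lower in the libraries labelled IL-33 KO and none was higher, where 16.8% of the 14513 genes tested were called lower, 22.2% higher and 39.1% in either direction. The groups did not overlap for 2 of the 5, Myd88 below WT and Il1rap above it, where 24.3% of genes tested lay below, 30.2% above and 54.6% either. These shares do not set the members apart from the table. The median change was -0.13 over these members and 0.044 over all genes tested.

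Il33, the gene named by the label, had 1.14, 0.616 and 1.02 FPKM in libraries labelled IL-33 KO, against 1.71, 1.13 and 3.64 FPKM in WT libraries. The highest of the labelled IL-33 KO values lay just above the lowest WT value, so the groups overlapped. The difference did not pass (-0.65 ± 0.28 (SE), limma adjusted p = 0.0990; exact permutation p = 0.2). It did pass without WT library 2 (limma adjusted p = 0.0350), and without WT library 3, the highest, the change was -0.33 (limma adjusted p = 0.174). The values do not show which exons the reads cover, and do not settle the label.

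Padi4 was listed at 0.0107, 0 and 0 FPKM in libraries labelled IL-33 KO and at 0, 0 and 0.0220 FPKM in WT libraries, and Padi1 was at or below 0.0877 FPKM in all 6. Padi2 was the highest PAD gene in every one of these libraries. It had 0.324, 0.355 and 0.423 FPKM in libraries labelled IL-33 KO and 0.114, 0.0800 and 0.138 FPKM in WT libraries. Every labelled IL-33 KO value lay above every WT value, the opposite order to the PAD4 set (exact permutation p = 0.1). The level was below the one tested, and with no filter on level the change was 0.30 ± 0.045 (SE, limma adjusted p = 0.00961).

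The WT libraries of the PAD4 set held 14.8 to 41.7 FPKM of Padi1, whereas those of the IL-33 set held 0.0161 to 0.0877 FPKM. The labels give both groups the same strain and injury. Smooth muscle sums were 347 to 750 FPKM in WT of the PAD4 set and 37.8 to 53.8 FPKM in WT of the IL-33 set. Uterus sums were 191 to 608 FPKM and 5.18 to 17.5 FPKM, and Xist was at 1.78 to 4.97 FPKM and at or below 0.0104 FPKM. Proximal tubule sums stood the other way, at 4882 to 8144 FPKM and 12358 to 16855 FPKM. The part of these differences in the Padi1 levels was not tested. The sets come from different batches and may have been normalized separately, so no test was made. Batch and set cannot be told apart.

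**Figure D3:**
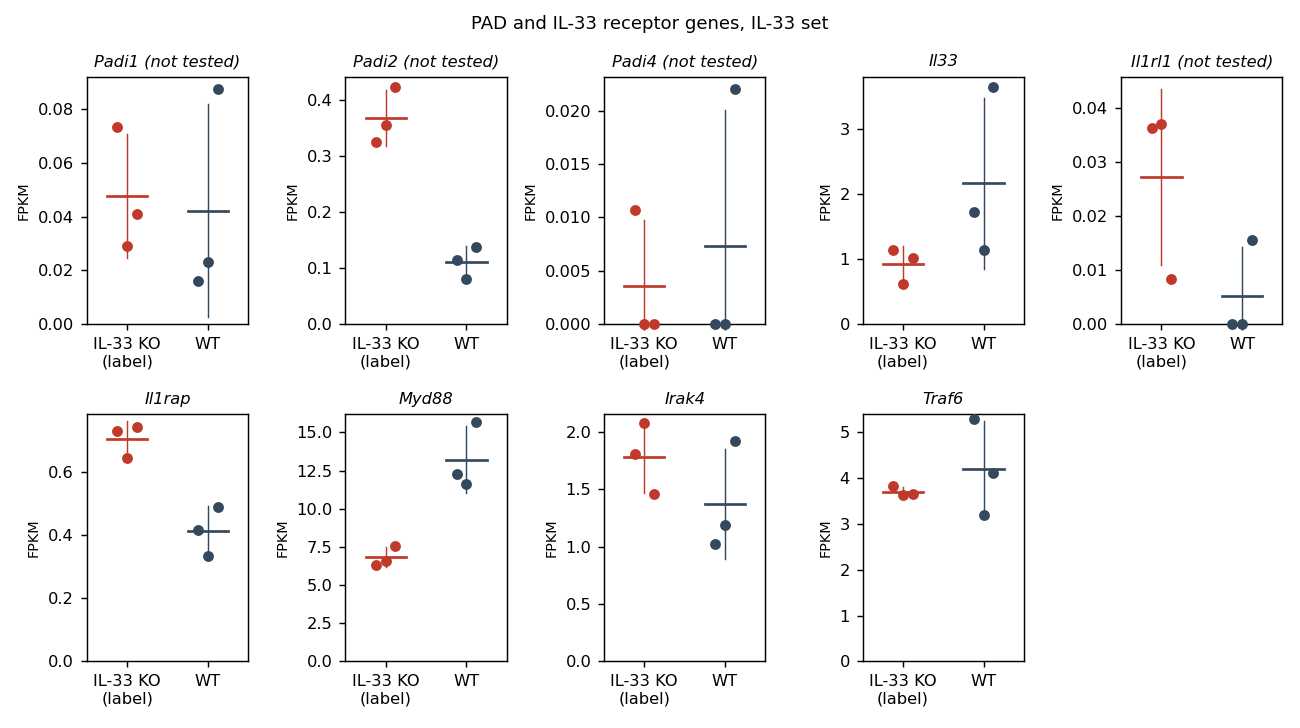
FPKM of the 9 genes with a row in the IL-33 set, with a point per library (3 labelled IL-33 KO, 3 WT), a horizontal bar for the mean and a vertical line for the SD; the scale differs between panels. Myd88 shows labelled IL-33 KO points at 6.32 to 7.55 FPKM, below all WT points, while Padi2 and Il1rap lie above theirs.

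The receptor Il1rl1 had 0.0363, 0.0370 and 0.00836 FPKM in libraries labelled IL-33 KO and 0, 0 and 0.0156 FPKM in WT libraries, which overlapped (exact permutation p = 0.2). The co-receptor Il1rap had 0.730, 0.642 and 0.743 FPKM in libraries labelled IL-33 KO and 0.417, 0.333 and 0.489 FPKM in WT libraries. These groups did not overlap, and the change of 0.27 ± 0.11 (SE) did not pass (limma adjusted p = 0.0784; exact permutation p = 0.1). Il1rap reached the level tested only through the libraries labelled IL-33 KO. Fibroblast and pericyte markers were higher in the same libraries for 5 of 9 tested, with sums of 87.2 to 111 FPKM in labelled IL-33 KO and 36.5 to 78.9 FPKM in WT. The share called was 55.6%, where 39.1% of all genes tested were called and 22.2% were higher. Lum, 1 of the 5, reached the level through labelled IL-33 KO alone. That count was 3 without labelled IL-33 KO library 1 or 3, and their part in the Il1rap values was not tested.

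Myd88 had 6.32, 6.55 and 7.55 FPKM in libraries labelled IL-33 KO, against 12.3, 11.6 and 15.7 FPKM in WT libraries. The libraries labelled IL-33 KO were close to each other, and all lay below the WT values. The means were 6.81 ± 0.655 FPKM in labelled IL-33 KO and 13.2 ± 2.19 FPKM in WT (SD, n = 3 each), a change of -0.85 ± 0.13 (SE, limma adjusted p = 0.00214; exact permutation p = 0.1). It passed under every setting run and without any single library, with limma adjusted p values up to 0.0125. Acaa1a, a peroxisomal thiolase gene that overlaps Myd88 on the opposite strand, was at 32.4 ± 1.79 FPKM in labelled IL-33 KO and 32.8 ± 2.45 FPKM in WT.

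No neutrophil marker was called in this set. Of 16, 4 were tested, with sums of 5.61 to 8.16 FPKM in labelled IL-33 KO and 3.56 to 8.63 FPKM in WT. Ly6g was at 0 in all libraries but WT library 1, at 0.132 FPKM. Of 6 tested colon markers, 2 were lower and 1 was higher. The share called was 50%, near the 39.1% of all genes tested. All 14 colon markers with a row summed to 105 to 114 FPKM in labelled IL-33 KO and 153 to 418 FPKM in WT. These sums differed largely by Krt20, a keratin that injured tubules also make, at 0.321 ± 0.0717 FPKM in labelled IL-33 KO and 211 ± 147 FPKM in WT (SD, n = 3 each). Krt20 reached the level through its WT libraries alone.

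Irak4 had 1.80, 2.08 and 1.46 FPKM in libraries labelled IL-33 KO and 1.02, 1.19 and 1.92 FPKM in WT libraries, which overlapped (0.24 ± 0.17 (SE), limma adjusted p = 0.294). Traf6 had 3.81, 3.63 and 3.64 FPKM in libraries labelled IL-33 KO and 5.27, 3.19 and 4.11 FPKM in WT libraries (-0.13 ± 0.16 (SE), limma adjusted p = 0.555). Its labelled IL-33 KO values all lay inside the WT range.

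Of the same 32 signalling genes, 13 were lower in libraries labelled IL-33 KO and 3 were higher, with a median change of -0.30. The share called was 50%, against 39.1% of all genes tested, and the groups did not overlap for 19 of the 32 (59.4%), against 54.6%. Counted in either direction, the list thus lay not far above the rate of the table. Its calls leaned to lower, with 40.6% called lower, where 16.8% of all genes tested were lower and 22.2% higher. The list was not tested as a set. Among the lower genes were Ikbkb and Ikbkg, subunits of the IκB kinase, the NF-κB subunits Rela, Relb and Nfkb2, and the inhibitors Nfkbia and Nfkbib. Rela was at 13.0 FPKM in labelled IL-33 KO and 36.0 FPKM in WT on average (-1.36, limma adjusted p = 0.00151). Nfkbib had 9.82, 9.42 and 9.47 FPKM in libraries labelled IL-33 KO and 18.7, 16.7 and 17.0 FPKM in WT libraries (-0.80 ± 0.090 (SE), limma adjusted p = 0.000502).

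Irak2, a kinase that works with IRAK4, was lower too (-0.69, limma adjusted p = 0.00131), as were the MAP kinase kinases Map2k3, Map2k4 and Map2k7. Jun had 9.42 ± 1.54 FPKM in libraries labelled IL-33 KO and 41.2 ± 8.86 FPKM in WT libraries (SD, n = 3 each; limma adjusted p = 0.000201), and Fos changed by -1.84 (limma adjusted p = 0.00257). The higher genes were Map2k6, at 3.44 ± 0.452 FPKM in labelled IL-33 KO and 1.22 ± 0.245 FPKM in WT (limma adjusted p = 0.00120), the p38 kinase Mapk14, which MAP2K6 activates (limma adjusted p = 0.00357), and Peli2, a ubiquitin ligase that acts on IRAKs (limma adjusted p = 0.0380). Map3k7 (TAK1) was at 8.76 FPKM in labelled IL-33 KO and 8.20 FPKM in WT, and neither it nor its partners Tab1, Tab2 and Tab3 were called. With a library left out, 13 to 19 of the 32 genes were called.

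Of the 6 tested IL-1 family genes, 2 were lower and 1 was higher in libraries labelled IL-33 KO. The share called was 50%, against 39.1% of all genes tested. The IL-36 ligand Il1f6 (IL-36α) was listed at 0, 0.283 and 0 FPKM in libraries labelled IL-33 KO and at 1.34, 2.86 and 1.62 FPKM in WT libraries. Il1r2 was at 0.0294, 0 and 0.0643 FPKM in libraries labelled IL-33 KO and 1.52, 0.344 and 1.70 FPKM in WT libraries. Both reached the level through their WT libraries alone, so their count as lower is a description. Sigirr was higher, at 28.7, 31.5 and 29.8 FPKM in libraries labelled IL-33 KO and 11.1, 18.7 and 15.5 FPKM in WT libraries (0.97 ± 0.17 (SE), limma adjusted p = 0.00352). Il18 was not called (limma adjusted p = 0.344).

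Among 5 tested genes of type 2 lymphoid cells and their products, 3 were lower and 1 was higher. The share called was 80%, against 39.1% of all genes tested. Areg was listed at 0 in all 3 libraries labelled IL-33 KO and at 10.0, 1.69 and 2.39 FPKM in WT libraries. It was tested only through its WT values, so its place in this count is a description. Crlf2, the receptor chain for the cytokine TSLP, was lower (-0.57, limma adjusted p = 0.0137) and so was the nuclear receptor Rora (-0.38, limma adjusted p = 0.0477). Il17rb, the receptor for IL-25, was higher (0.62, limma adjusted p = 0.0401). The count was 2 without labelled IL-33 KO library 1 or 3, and 1 without labelled IL-33 KO library 2. Il5, a cytokine that ILC2 release, was at or below 0.115 FPKM in all 6 libraries.

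Proximal tubule markers were higher for 11 of 15 in libraries labelled IL-33 KO, and 1, Kap, was lower (limma adjusted p = 0.0429). The share called was 80%, where 39.1% of all genes tested were called and 22.2% were higher. The call of Kap was lost with no filter on level and when any library but WT library 3 was left out. Kap, an androgen-dependent gene of the proximal tubule, is the most abundant of the list and holds the sums at 10877 to 13672 FPKM in labelled IL-33 KO and 12358 to 16855 FPKM in WT. Of the citrullination targets and trap histone genes, 6 of 12 were lower and 1 was higher, led by Fgb, at 1.15 ± 0.514 FPKM in labelled IL-33 KO and 12.9 ± 3.86 FPKM in WT (SD, n = 3 each; limma adjusted p = 0.000194). The share of this list called was 58.3%, against 39.1% of all genes tested, and the share without overlap 66.7%, against 54.6%. Called lower were 50% of the list and 16.8% of all genes tested. The part of a shift between kidney cell types in the signalling genes was not tested.

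**Figure D4:**
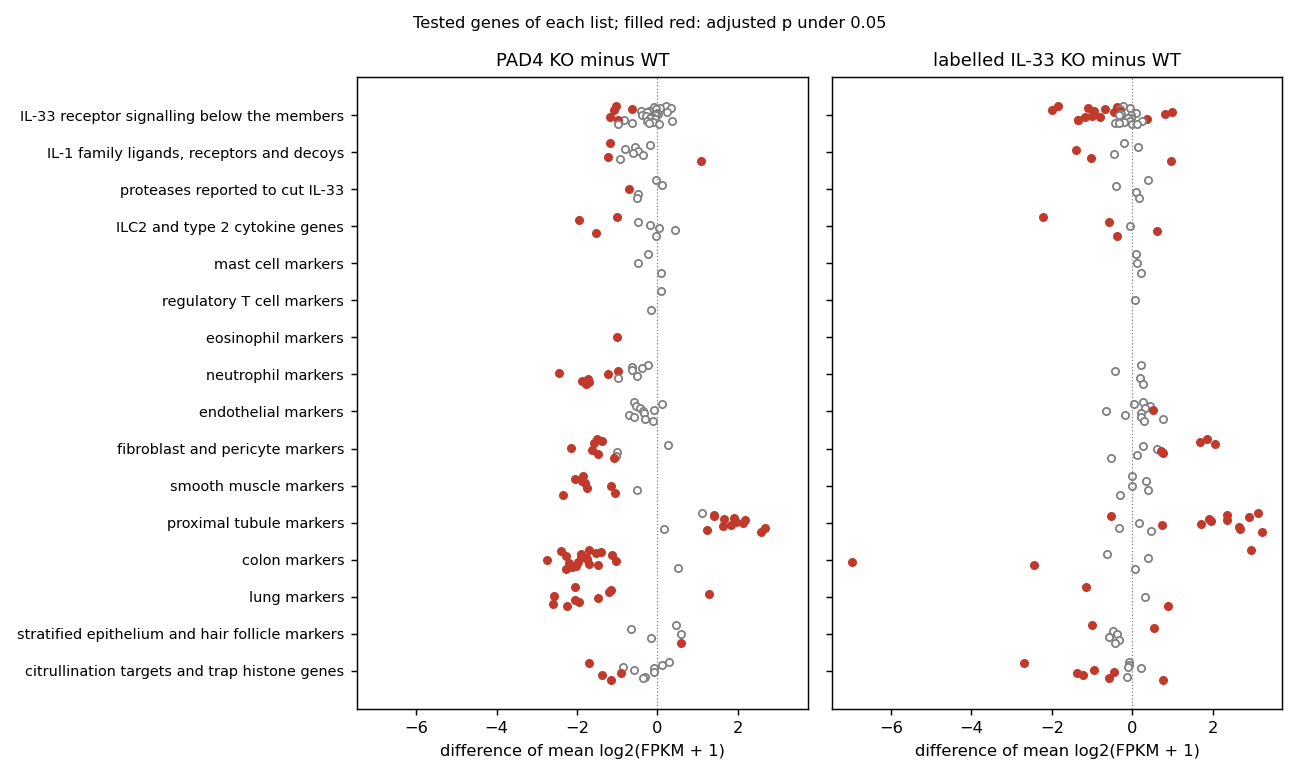
Change of each tested gene of the 16 lists (horizontal, difference of mean log2(FPKM + 1); lists run down the page), for PAD4 KO minus WT and for labelled IL-33 KO minus WT, with 3 libraries per group; filled red points have a limma adjusted p under 0.05 and open points do not. Of 32 signalling genes, 5 are red and lower in PAD4 KO and 13 in labelled IL-33 KO, and 19 of 20 colon markers are red and lower in PAD4 KO.

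The changes of both comparisons were set against each other in a contrast over all 12 libraries and 13010 genes, of which 12.4% were called. For the 4 members that could be compared, none was called. The difference, the IL-33 set's change minus the PAD4 set's change, was 0.54 ± 0.23 for Irak4 (SE, limma adjusted p = 0.142) and 0.51 ± 0.35 for Il33 (limma adjusted p = 0.376). It was -0.25 ± 0.28 for Myd88 (limma adjusted p = 0.612) and -0.0029 ± 0.23 for Traf6 (limma adjusted p = 0.996). Thus Myd88, called in the IL-33 set and not in the PAD4 set, was not shown to differ between them. The comparisons share no libraries. The other 6 members did not reach the level in both tables, so that the opposite orders of Padi2 in the 2 sets were not tested.

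**Figure D5:**
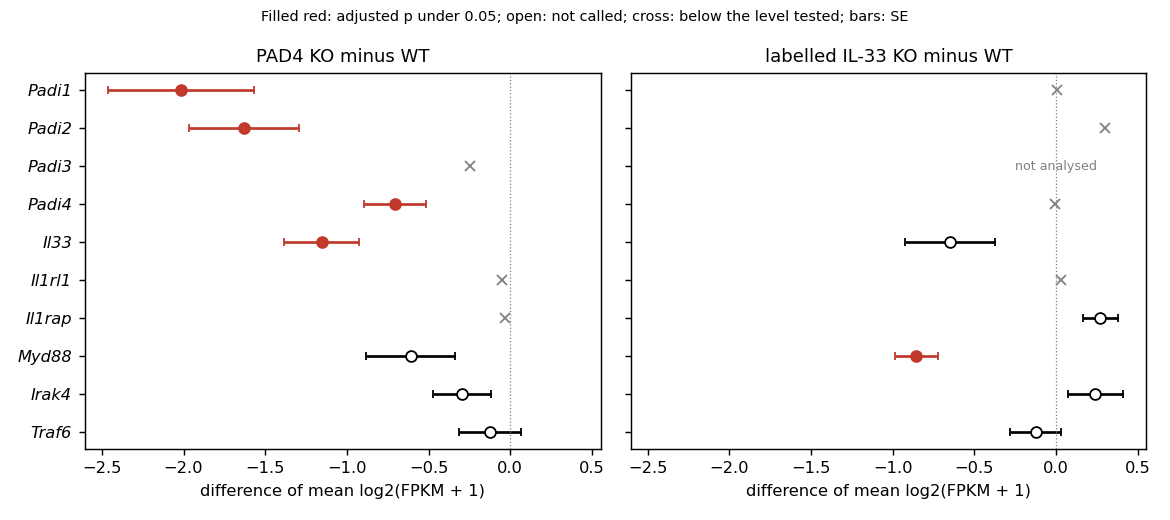
Change of each of the 10 genes (horizontal, difference of mean log2(FPKM + 1)) for PAD4 KO minus WT and for labelled IL-33 KO minus WT, 3 libraries per group. Bars are the limma SE, filled red points were called, open points were not, and crosses lie below the level tested; Padi1 at -2.02 and Padi2 at -1.63 lie furthest below 0 in the PAD4 set, and Myd88 at -0.85 in the IL-33 set.

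Over the 6 libraries of the PAD4 set, the genes whose log2(FPKM + 1) followed Padi4 most closely were Ptgfrn, Zfp36l2, Rps6ka3, Osr2 and Csnk1a1, with Pearson r between 0.997 and 0.999. A total of 741 genes had r above 0.95, so this likeness is shared widely. For Il33 in that set they were Lox, Mcam, Mmd, Pdgfra and Ms4a6d (r between 0.990 and 0.997, with 112 genes above 0.95). Lox cross-links collagen, Mcam is a surface protein of vessels and pericytes, and Pdgfra marks fibroblasts. In the IL-33 set they were Nol10, B3gnt3, Vav2, Tapbpl and Urb1 (r between 0.994 and 0.997, with 144 genes above 0.95), and none of the 5 is in both sets. These values describe 6 points in 2 genotype groups and carry no p.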

How the data were processed

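The authors deposited FPKM values, 1 table per set with 1 column per library, per the file headers. RNA with poly(A) tails was made into libraries that keep the strand (labels' protocols). HISAT2, StringTie, edgeR, DESeq2, cutadapt and FastQC are named, without versions or order, in the submitters' processing notes. The build and the annotation were not given in the sources used here. FPKM is relative to all mapped fragments, so a few abundant transcripts can move every other value: mitochondrially encoded genes took 52.0% to 60.0% of the FPKM sum in the PAD4 set and 24.1% to 29.2% in the IL-33 set. A GENCODE annotation gave symbols to 30212 and 29690 genes of the 2 tables, which were tested separately. WT columns of the IL-33 set name the injury and a number, and 0 columns belonged to no sample.

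The test was limma's (version 3.58.1, R 4.3.3, lmFit and eBayes with a trend) on log2(FPKM + 1) over genes with a mean of at least 0.5 FPKM in 6 libraries, two-sided, adjusted by Benjamini-Hochberg over every gene tested, with a threshold of 0.05. Limma's SE draws on the spread of other genes. The fit was tested on simulated data. Named are all members, up to 4 called genes of each list with the smallest adjusted p (2 where none was called), and the 5 genes most like Padi4 and Il33. Other signalling genes, neighbours and markers at low level were named after their values were seen. The members and the 16 lists were chosen with earlier results of these data known, and the uterus list was added after. Other settings tried were pseudocounts of 0.1 and 0.5, no filter, a minimum of 2 FPKM, several scalings, array weights, no trend, the replicate number as a block and each library left out. The result for 1 listed gene is not reported here.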

Additional observations from a re-analysis of the deposited data

How the results depend on the processing

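Over 242 recomputed values with a test, 221 kept their direction and their side of the threshold. In the PAD4 set, 2473 genes were called, against 5206 with array weights and 0 with no filter on level, where limma gave 6053 genes an unadjusted p under 0.05. Leaving out a library gave 1102 (without WT library 1) to 3543 genes, with 1322 without WT library 3. The 4 members called became 0 with no filter, and 2 to 4 with a library left out. Padi4 kept its change of -0.71 but not its call with no filter (limma adjusted p = 0.162) and with no trend (limma adjusted p = 0.0579), and its change was -0.86 to -0.53 with a library left out. Padi1 was also not called with no filter (limma adjusted p = 0.188) or median-of-ratios scaling (limma adjusted p = 0.0504), and Padi2 and Il33 not with no filter (limma adjusted p = 0.155 and 0.0970). In the IL-33 set, 5671 genes were called, and 3678 to 6092 with a library left out (3678 and 3731 without labelled IL-33 KO libraries 1 and 3). The member called there became 2 with no filter, 2 with quantile normalization, 2 with the replicate block and 1 to 2 with a library left out. Il33 in that set passed with quantile normalization (-0.74, limma adjusted p = 0.0395), and its change was -0.89 to -0.33 with a library left out. Traf6 in the IL-33 set was at -0.27 to 0.021 with a library left out, and turned to 0.021 without WT library 1, and its difference between the changes to 0.019 under TPM scaling, 0.054 without mitochondrially encoded genes, 0.059 with a pseudocount of 0.1 and 0.021 with 0.5. The cause was not tested. Same-numbered libraries did not deviate together (r between -0.146 and 0.134), so the numbers are not taken as pairs. With the replicate block, 1984 and 5336 genes were called, Padi4 kept its call (-0.71, limma adjusted p = 0.00934), and Il33 of the IL-33 set passed (-0.65, limma adjusted p = 0.0408). Without WT library 3 of the PAD4 set the median of all genes moved to 0.11. With no depth known, values near 0 FPKM carry no counting error, and no groups of 3 were searched for outliers.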

Other observations

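A few genes of the pathway stood in the same order in both sets, whose libraries differ. Sigirr was higher in PAD4 KO kidneys (1.07 ± 0.28 (SE), limma adjusted p = 0.0134) and in libraries labelled IL-33 KO (0.97 ± 0.17 (SE), limma adjusted p = 0.00352). Jun, Fos, Nfkbia and Relb were called lower in each, as were Il1r2 and Areg, which reached the level tested through WT libraries alone in both sets. In the PAD4 set, Relb values overlapped, and the count of signalling genes called was 0 without WT library 3. It was 1 without WT library 1 and 1 without PAD4 KO library 3. The share of all genes called lower in both sets was not counted. The genes named here were picked after their values were seen, and a shared cause was not tested.

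Sdhb, the neighbour of Padi2, was higher in libraries labelled IL-33 KO as well, at 116 ± 4.93 FPKM, against 79.7 ± 7.72 FPKM in their WT libraries (0.53 ± 0.095 (SE), limma adjusted p = 0.00398). In the PAD4 set its WT libraries held 11.4 to 20.3 FPKM, and the values of both tables were normalized separately.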
